A study of Homo sapiens with 18 samples.

Results

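The genes described here encode the subunits of the oxidative phosphorylation complexes. They were chosen by name: protein-coding genes with symbols of the NDUFA, NDUFB, NDUFC, NDUFS and NDUFV series (complex I, the assembly factors NDUFAF left out), SDHA to SDHD (complex II), UQCR (complex III), COX4 to COX8 (complex IV) and ATP5 (complex V, the ATP synthase), and the protein-coding genes of the mitochondrial genome (MT-). The rule gave 104 genes, 91 nuclear and 13 mitochondrial, beside 34255 genes with a transcript in the count table. Of these, 102 had a matched transcript and 2 nuclear genes were not analysed here. A filter on low counts left 95 of the 104 for testing, 82 nuclear and 13 mitochondrial.

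RNA was measured by poly-T mRNA sequencing in HEK293 cells, a human embryonic kidney cell line, in 6 groups of 3 biological replicates each. The lines were wildtype (WT) cells, a double knockout of β-arrestin1 and β-arrestin2 (β-arrestin1/2 KO, here β-arr1/2 KO), and a Gαs KO, with 1 CRISPR-Cas9 derived line for each knockout. All cells, wildtype included, carried a transfected β2-adrenergic receptor (β2AR) plasmid and were serum starved overnight. At 48 h after transfection they received vehicle (basal) or 1 μM isoproterenol (ISO), a β-adrenergic agonist, for 1 h. The question asked of these genes was how their RNA responded to ISO with and without the G protein or the arrestins, and how the lines differed. Because each edited line is 1 derivative, the edit and the line cannot be told apart.

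In oxidative phosphorylation, complexes I to IV pass electrons from NADH and succinate to oxygen and, except for complex II, pump protons across the inner mitochondrial membrane. ATP synthase uses the proton gradient to make ATP. Most subunits are nuclear genes whose proteins are imported, while the mitochondrial genome, transcribed in the mitochondrion as long precursors by its own polymerase, supplies core subunits of complexes I, III, IV and V and none of complex II.

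Library totals ran from 17908597 to 25019834 expected counts with a median of 20419459. The library WT basal 1 stood apart, with a count-weighted GC content of 52.49% against 49.15 to 50.1% in the others, a mean transcript length of 3109 bases against 3398 to 3553, and 16591 genes with a count against 17816 to 18684. For set medians and some genes, values are given with and without it. All other wildtype responses and basal differences from wildtype include it, as do the wildtype basal TPM means. GNAS, which encodes Gαs, had 1173 to 1365 normalised counts in Gαs KO cells and 20419 to 33553 in wildtype cells. ARRB2 had 291 to 441 in β-arr1/2 KO cells and 1528 to 2523 in wildtype cells. ARRB1 RNA was at 725 to 832 and 736 to 1250, so the RNA level of ARRB1 did not separate these lines. All 10 of 10 HEK293 markers passed the filter, and of 6 markers of other cell types COL1A1 passed (352 to 914 normalised counts), while PTPRC, PECAM1, ALB, MYH2 and EPCAM were at 12.6 or fewer in every library. In bulk RNA, fewer cells and less RNA per cell cannot be told apart.

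Levels of different genes were compared per transcript length, as TPM (counts divided by transcript length and scaled to the same sum in every library). In wildtype basal cells the mitochondrial genes stood above most nuclear ones on this scale. The means include WT basal 1, where the mitochondrial genes summed to 27463 TPM, against 49581 and 44021 in the other wildtype basal libraries. The nuclear genes summed to 20366 TPM there, against 16743 and 17492. MT-CO2 had 7856 ± 1789 TPM (mean ± SD, n = 3), MT-CO1 7020 ± 1387 and MT-ATP6 5460 ± 1929. MT-CO1 and MT-CO2 form the catalytic core of cytochrome c oxidase, complex IV, and their levels differed by less than the SD. The lowest mitochondrial gene was MT-ND6, the only light-strand message of the set, at 645 ± 368 TPM, a mean lowered by WT basal 1. The highest nuclear genes were ATP5MC2, an isogene of the c subunit of the proton-turning ring, at 1086 ± 180 TPM, ATP5F1B, the catalytic β subunit, at 947 ± 2.22, and COX7C, a small subunit of complex IV, at 931 ± 27.6. The first and the third of these also differed by less than the SD of ATP5MC2.

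**Figure D1:**
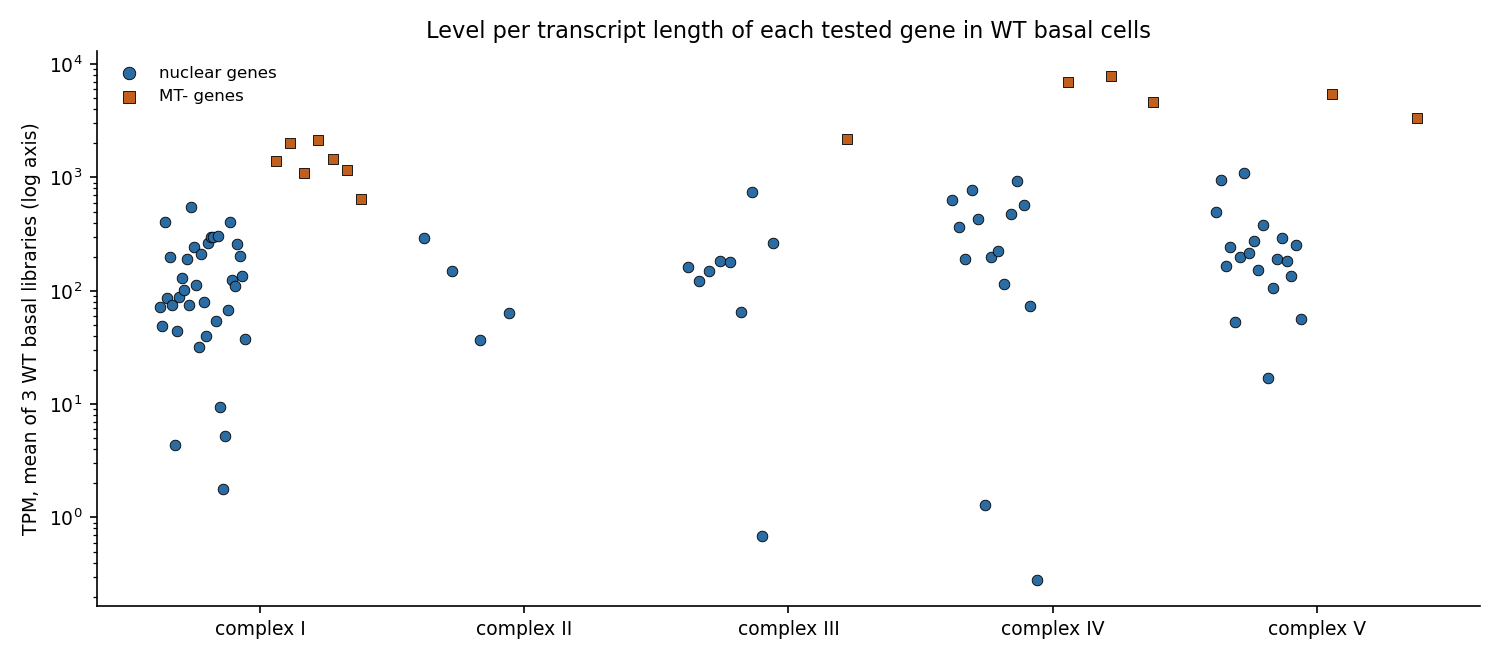
Level of each tested gene in the 3 wildtype basal libraries, as mean TPM on a log axis, by complex; circles are nuclear and squares mitochondrial genes. The mitochondrial genes lie between 645 and 7856 TPM, and the nuclear genes reach 1086 TPM.

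Of most isogene pairs, these cells held RNA of the broadly expressed form. Muscle-, testis- or lung-associated forms were at or near 0. COX4I1 had 632 ± 116 TPM and COX4I2 0 counts in all 18 libraries. COX6A1 had 779 ± 148 TPM and COX6A2 at most 2 counts, and COX7A2 had 223 ± 4.10 TPM, COX7A2L 116 ± 38.3 TPM and COX7A1 at most 1 count. COX7B (477 ± 30.0 TPM) and COX8A (567 ± 203 TPM) were measured, and COX7B2 and COX8C were at 0 counts. A count of 0 in a library leaves room for up to 3 counts. COX6B1 had 426 ± 131 TPM and the testis form COX6B2 1.30 ± 0.239 TPM. NDUFA4, now assigned to complex IV, had 73.8 ± 5.02 TPM and NDUFA4L2 0.28 ± 0.332 TPM.

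UQCRH, the hinge protein of complex III, had 739 ± 144 TPM, and its near-copy UQCRHL had 0.68 ± 0.221 TPM. Reads of UQCRHL may stem from UQCRH, so its values are uncertain. The 3 genes that encode an identical mature c subunit of ATP synthase were all measured, with ATP5MC2 at 1086 ± 180, ATP5MC3 at 217 ± 69.2 and ATP5MC1 at 198 ± 20.3 TPM. ATP5MGL, a copy of ATP5MG, had at most 3 counts. NDUFA3 was represented by 6 of its 14 annotated transcripts, NDUFA6 (0 counts) by 2 of 3 and NDUFS3 by 1 of 13. The values of these genes do not stand for the whole gene.

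Neighbouring mitochondrial genes share bases, and reads there cannot be split between them. MT-ATP8, an accessory subunit of ATP synthase, overlaps MT-ATP6, the proton channel subunit, by 46 bases at chrM:8527-8572 (GRCh38, plus strand), which is 22.2% of the 207 bases of MT-ATP8. The shared stretch from the reference genome is shown because it makes these genes' counts depend on each other. Its capitals mark the first codon of MT-ATP6 and the stop codon of MT-ATP8.
MT-ATP8 and MT-ATP6: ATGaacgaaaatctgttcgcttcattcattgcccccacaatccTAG
The short MT-ATP8 was also the gene whose TPM moved most with the length model, from 3373 to 11007 TPM in wildtype basal cells when 200 bases were subtracted from each transcript length. It then stood above MT-CO2 (8725 TPM), and MT-ND4L went from 1441 to 3469 TPM. The order of the mitochondrial genes given above therefore depends on the length model.

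Mitochondrial genes took the largest share of the library in β-arr1/2 KO cells given ISO. Their share of all gene counts was 3.05, 2.97 and 3.32% in those 3 libraries. The same line held 1.7, 2.66 and 2.29% at basal. All 3 ISO libraries of this line lay above the other 15, which reached 2.66%. In wildtype cells the share was 1.55, 2.25 and 1.97% at basal and 2.06, 2.43 and 2.18% with ISO. The Gαs KO libraries held 2.41, 2.14 and 2.37% at basal and 2.30, 2.16 and 2.33% with ISO. Basal and ISO libraries overlapped in wildtype and in Gαs KO cells.

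The nuclear subunit genes took less and varied less. Their share was 0.794, 0.779 and 0.759% in β-arr1/2 KO basal libraries and 0.793, 0.759 and 0.815% with ISO. All 6 Gαs KO libraries lay between 0.798 and 0.849%. The wildtype libraries held 1.04, 0.803 and 0.830% at basal and 0.760, 0.766 and 0.836% with ISO, and the highest value of all 18, 1.04%, was that of WT basal 1. The ratio of mitochondrial to nuclear counts was 3.85, 3.91 and 4.07 in β-arr1/2 KO cells with ISO and 1.5 to 3.41 in the other libraries. Reads of MTATP6P1, a nuclear copy of mitochondrial sequence, amounted to 2.25 to 6.75% of the count of MT-ATP6, with the highest count in β-arr1/2 KO basal 2.

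**Figure D2:**
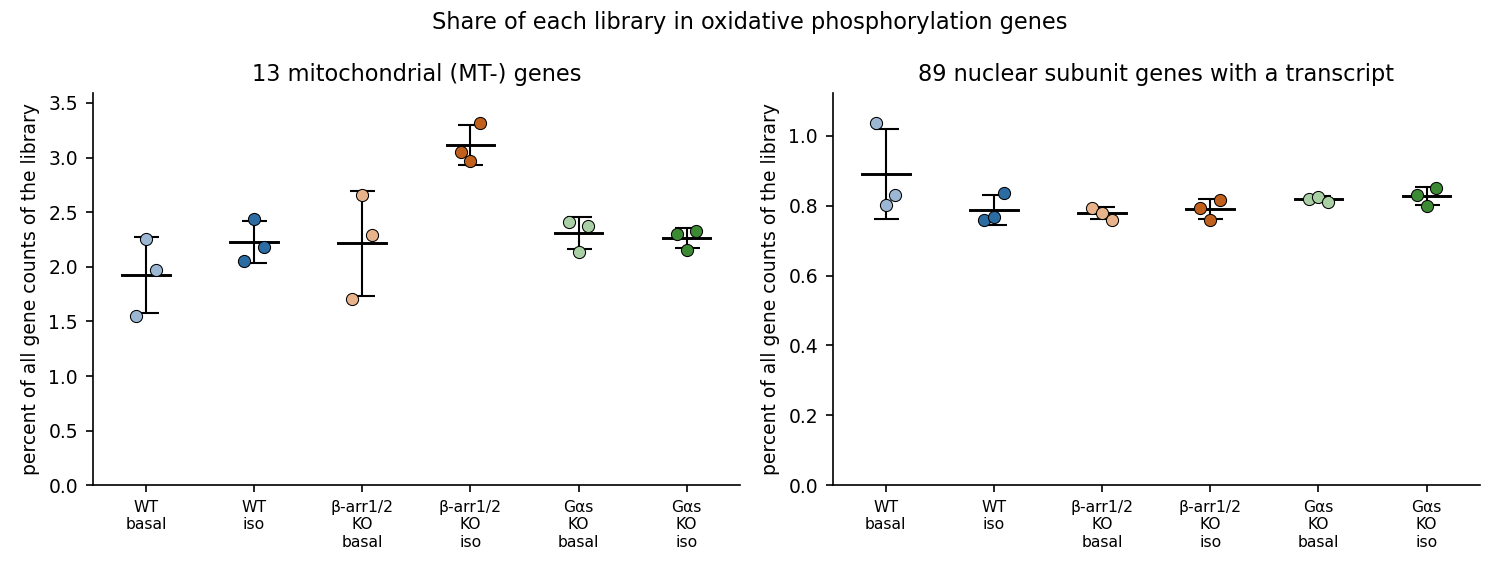
Percent of all gene counts of each library in the 13 mitochondrial genes (left) and in the 89 nuclear subunit genes with a transcript (right); points are libraries, and lines and bars are the mean ± SD of 3 libraries per group. The 3 ISO libraries of β-arr1/2 KO cells sit at 2.97 to 3.32% on the left, above the other 15, while the nuclear share lies between 0.759 and 1.04%.

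Tested gene by gene, 3 of the 13 mitochondrial genes rose with ISO in β-arr1/2 KO cells, MT-CYB, MT-ND1 and MT-CO3. The background for that direction was 0.954% of the 15519 genes tested. All 13 fitted changes were positive, with a median log2 fold change of 0.54, against medians between -0.01 and 0.02 over all genes in the 9 comparisons made. In each of the 13 the ISO libraries lay above the basal libraries without overlap, which held for 15.4% of all genes in that direction and for 14.4% in the other. MT-CO1, MT-CO2, MT-ND2, MT-ND3, MT-ND4, MT-ND4L, MT-ND5, MT-ND6, MT-ATP6 and MT-ATP8 had log2 changes of 0.29 to 0.72 with adjusted p from 0.091 to 0.81.

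MT-CYB (chrM:14747-15887, plus strand), the cytochrome b core of complex III, had 23207, 36431 and 31410 normalised counts at basal and 47474, 45127 and 54188 with ISO in β-arr1/2 KO cells. The lowest ISO value lay above the highest basal value, and the basal libraries spread more widely. The log2 fold change was 0.69 ± 0.14 (SE, edgeR quasi-likelihood test, Benjamini-Hochberg adjusted p = 0.016). In wildtype cells MT-CYB had 21979, 29897 and 26938 at basal and 27526, 32360 and 28443 with ISO, and in Gαs KO cells 34118, 30363 and 33222 and then 31892, 28514 and 32026. Those groups overlapped.

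MT-ND1, a membrane core subunit of complex I, had 9314, 12830 and 10986 normalised counts at basal and 16570, 16023 and 17812 with ISO in β-arr1/2 KO cells, a log2 fold change of 0.61 ± 0.12 (edgeR adjusted p = 0.016). Its basal libraries were low against wildtype basal (11689, 16472 and 14569), and its ISO libraries lay within the wildtype ISO range (15003 to 18129). MT-CO3, a core subunit of complex IV, had 29961, 44187 and 38953 at basal and 57059, 48690 and 62402 with ISO in the same line, a log2 fold change of 0.57 ± 0.12 (edgeR adjusted p = 0.026). Its wildtype libraries (38939, 37664 and 39262 at basal, 36773, 45788 and 41365 with ISO) overlapped.

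The number of mitochondrial calls in this response rested on single libraries. It was 0 without β-arr1/2 KO basal 1, basal 3, ISO 1 or ISO 3, when the median log2 fold change was 0.37, 0.56, 0.55 and 0.49, and 7 without basal 2. Without WT basal 1 all 13 were called in β-arr1/2 KO cells. The fitted change was positive for 13 of 13 genes in each of these. The 13 genes come from shared precursors and the same libraries, so such tallies are not 13 separate observations.

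In wildtype cells 0 mitochondrial genes were called by edgeR, 2 had an unadjusted p under 0.05 (1 higher, 1 lower; 10.5% of all genes did), and DESeq2 called 1, MT-ND5. The median log2 fold change was 0.21, and 12 of 13 changes were positive. The exception was MT-ND3, a complex I core subunit, with 3562, 3985 and 4551 normalised counts at basal and 2400, 2865 and 3532 with ISO. The highest ISO library lay below the lowest basal library (log2 fold change -0.46, edgeR adjusted p = 0.39). In the same line 1 mitochondrial gene lay above and 1 below its basal libraries without overlap, where the backgrounds were 4.85% and 4.16%. Without WT basal 1 the wildtype median was 0.09.

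In Gαs KO cells 0 mitochondrial genes were called, 0 had an unadjusted p under 0.05 in edgeR, and DESeq2 called 0. The background of this response was 0% of genes called. The median log2 fold change was -0.02 and 5 of 13 changes were positive. None of the 13 separated basal from ISO libraries, against 4.9% of all genes above and 5.58% below.

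**Figure D3:**
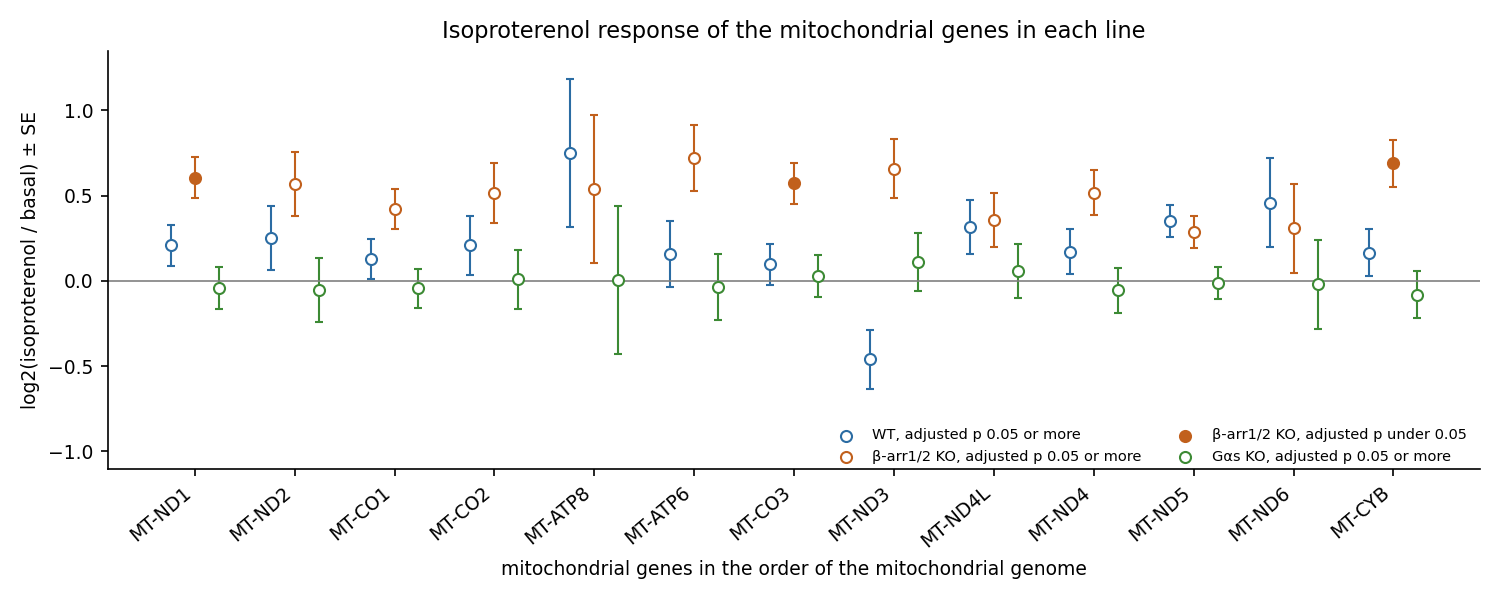
Log2 fold change (ISO over basal, ± SE) of the 13 mitochondrial genes in wildtype, β-arr1/2 KO and Gαs KO cells, in genome order; filled points have an edgeR adjusted p under 0.05. The β-arr1/2 KO points all lie above 0, with MT-ND1, MT-CO3 and MT-CYB filled, and MT-ND3 is the wildtype point below 0.

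The difference of the responses was tested by itself. For β-arr1/2 KO minus wildtype, 0 of the 13 mitochondrial genes were called by edgeR (background 0.142% higher and 0.0258% lower), 4 had an unadjusted p under 0.05, all higher (5.57% of all genes did, in either direction), and DESeq2 called 1, MT-ND3. The largest difference was that of MT-ND3 at 1.12 ± 0.24 on the log2 scale (adjusted p = 0.12). Without WT basal 1, MT-ATP6, MT-CYB, MT-ND1, MT-ND2 and MT-ND3 were called, 5 of 13. For Gαs KO minus wildtype 0 were called by edgeR (2 at an unadjusted p under 0.05, 1 in each direction, against 4.63% of all genes) and 0 by DESeq2. The response comparisons share the wildtype libraries.

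Among the nuclear genes, the small subunits COX7C and ATP5MD responded to ISO in opposite directions in wildtype and β-arr1/2 KO cells, and COX7A2 responded in the latter. COX7C and ATP5MD fell in wildtype cells, and they were the only 2 of 82 nuclear genes called there. The background was 0.0515% lower and 0.412% higher. COX7C, ATP5MD and COX7A2 rose in β-arr1/2 KO cells, the 3 of 82 called there. The background was 0.954% higher and 0.174% lower, and 0 of the 82 were called lower. The same 3 differed in response between these lines, all higher in β-arr1/2 KO (background 0.142% higher and 0.0258% lower). All 3 have short transcripts, and the calls among short genes are given below with transcript length. In Gαs KO cells 0 of 82 were called by edgeR, 1 had an unadjusted p under 0.05 (1.05% of all genes did), and DESeq2 called 0. For the difference of Gαs KO from wildtype edgeR called 0 of 82 (background 0.00644% higher and 0.155% lower), 14 had an unadjusted p under 0.05 (4.63% of all genes did), 13 of them higher, and DESeq2 called 2, ATP5MD and COX7C.

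ATP5MD, a small membrane subunit of ATP synthase at its dimer interface (ENSG00000173915, GRCh38 chr10:103389041-103396492, minus strand), had 610, 557 and 539 normalised counts at basal and 1053, 1057 and 1043 with ISO in β-arr1/2 KO cells. These groups were far apart against their SD of 36.6 and 7.13 counts. The log2 fold change was 0.89 ± 0.11 (edgeR adjusted p = 0.00018), 1.85 times the basal level. In wildtype cells the counts were 941, 1305 and 1263 at basal and 783, 751 and 861 with ISO, again without overlap, with a log2 fold change of -0.55 ± 0.11 (edgeR adjusted p = 0.028). The Gαs KO counts were 808, 877 and 828 and then 832, 850 and 971, and the groups overlapped. The responses of β-arr1/2 KO and wildtype cells differed by 1.44 ± 0.16 on the log2 scale (edgeR adjusted p = 0.00064).

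COX7C (ENSG00000127184, GRCh38 chr5:86617904-86620962, plus strand) is one of the small nuclear subunits around the core of complex IV. It had 6837, 6009 and 5860 normalised counts at basal and 4142, 4244 and 4930 with ISO in wildtype cells, and all ISO libraries lay below all basal libraries (log2 fold change -0.49 ± 0.08, edgeR adjusted p = 0.0079). In β-arr1/2 KO cells it had 3603, 3602 and 3260 at basal and 4896, 4605 and 4905 with ISO, with the order turned round (0.46 ± 0.08, edgeR adjusted p = 0.0075). With ISO the libraries of these lines overlapped, and at basal they did not. Gαs KO libraries held 3524, 3770 and 3738 at basal and 3768, 3572 and 4104 with ISO and overlapped. The difference of the β-arr1/2 KO and wildtype responses was 0.95 ± 0.12 (edgeR adjusted p = 0.0016).

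COX7A2 (ENSG00000112695, GRCh38 chr6:75237675-75250323, minus strand), the broadly expressed form of another small complex IV subunit, had 1382, 1366 and 1278 normalised counts at basal and 1763, 1782 and 1840 with ISO in β-arr1/2 KO cells (log2 fold change 0.42 ± 0.09, edgeR adjusted p = 0.02). Its groups did not overlap in that line. In wildtype cells it had 2048, 1677 and 1752 at basal and 1409, 1526 and 1693 with ISO, which overlapped (-0.24 ± 0.09, edgeR adjusted p = 0.36). Gαs KO libraries held 1426, 1580 and 1509 at basal and 1535, 1416 and 1545 with ISO. The difference of responses was 0.66 ± 0.12 (edgeR adjusted p = 0.035).

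**Figure D4:**
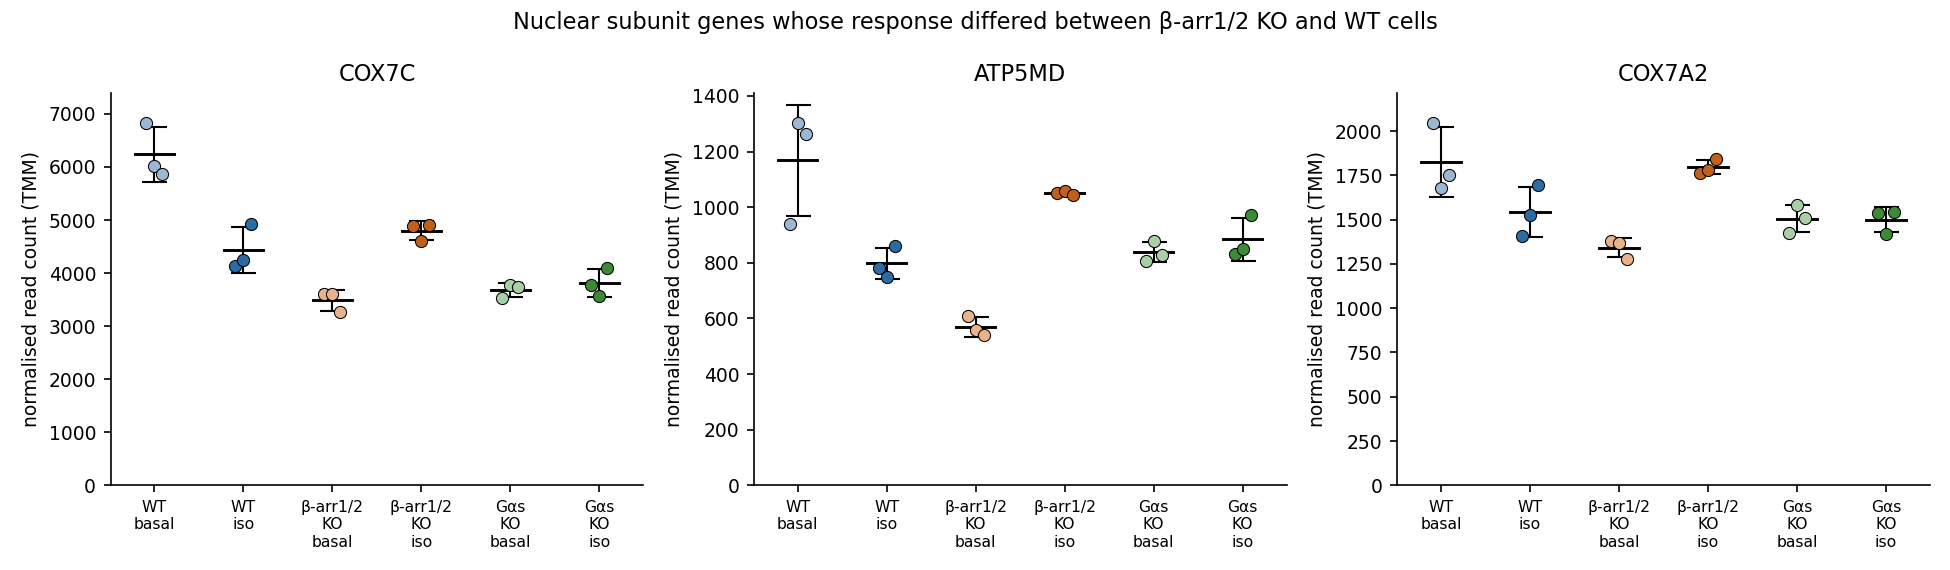
Normalised read counts (TMM) of COX7C, ATP5MD and COX7A2 in each of the 18 libraries; points are libraries, and lines and bars are the mean ± SD of 3 per group. The β-arr1/2 KO means go from 569 to 1051 for ATP5MD and from 3488 to 4802 for COX7C, and the wildtype means from 1170 to 798 and from 6236 to 4439.

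These calls were not equally firm. Over 26 other settings the ATP5MD response in β-arr1/2 KO cells and the response differences of ATP5MD and COX7C were called in all. The COX7A2 difference was lost in 18 (adjusted p from 6.8e-05 to 0.28), among them without any 1 β-arr1/2 KO library, and the COX7A2 response was lost without any 1 library of its own 2 groups (adjusted p from 0.062 to 0.15). The ATP5MD call in wildtype cells was lost in 12, and it was lost without any 1 WT library other than WT basal 1 (adjusted p from 0.053 to 0.19) and when the wildtype groups alone were fitted (adjusted p = 0.95). The COX7C call in wildtype cells was lost without WT ISO 1 (adjusted p = 0.074), without WT ISO 2 (adjusted p = 0.069) and when the wildtype groups alone were fitted (adjusted p = 0.95), and in β-arr1/2 KO cells without basal 3 (adjusted p = 0.073) or ISO 1 (adjusted p = 0.051).

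The upstream DNA of these genes differed in the motifs it held. Promoter windows from RefSeq (GRCh38.p14), from 250 bases before to 50 after a start site, were found for 72 of the 91 nuclear genes, with 86 windows. Of 4 motifs searched on both strands, those of factors known for nuclear respiratory genes, the NRF1 core (GCGCNTGC or GCANGCGC) was in 34.9% of these windows and in 11.74% of all 35116. The ETS motif (CCGGAAG or CTTCCGG) was in 25.6 and 10.26%, the YY1 motif (ATGGCGG or CCGCCAT) in 26.7 and 5.55%, and the cAMP response element (CRE, TGACGTCA) in 5.8 and 1.85%. The ETS letters CTTCCGG and CCGGAAG overlap where they stand together. A match is a description of letters and not a bound site.

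The 160 bases from 200 to 41 before the start are shown for COX7C, ATP5MD and COX7A2, the genes called in the ISO responses, and for ATP5MC1, which had the largest called drop between lines. Capitals mark the overlapping ETS letters that begin 163 bases before the start in ATP5MD and the CRE that begins 57 before it in ATP5MC1. A further ETS match in ATP5MD, 3 bases before the start, lies outside the stretch shown. COX7A2 had another RefSeq window, whose stretch at chr6:75243842-75244001 (minus strand) is not shown. The windows of COX7C and COX7A2, that one included, held none of the 4 motifs. The positions are chr5:86617741-86617900 (plus strand), chr10:103396516-103396675 (minus), chr6:75250339-75250498 (minus) and chr17:48892587-48892746 (plus), in that order.
COX7C: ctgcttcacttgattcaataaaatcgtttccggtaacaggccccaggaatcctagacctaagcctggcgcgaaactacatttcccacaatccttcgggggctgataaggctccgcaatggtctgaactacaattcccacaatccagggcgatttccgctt
ATP5MD: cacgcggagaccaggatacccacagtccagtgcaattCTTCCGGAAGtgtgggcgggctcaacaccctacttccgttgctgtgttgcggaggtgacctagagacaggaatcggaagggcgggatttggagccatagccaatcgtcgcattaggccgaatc
COX7A2: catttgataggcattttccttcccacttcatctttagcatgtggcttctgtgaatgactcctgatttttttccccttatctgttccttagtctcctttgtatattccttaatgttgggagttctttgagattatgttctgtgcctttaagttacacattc
ATP5MC1: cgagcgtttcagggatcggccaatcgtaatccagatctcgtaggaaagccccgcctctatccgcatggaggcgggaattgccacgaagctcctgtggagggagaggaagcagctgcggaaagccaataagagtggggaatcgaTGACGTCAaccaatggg
The CRE was in 5 of the 86 windows, those of ATP5MC1, ATP5ME, NDUFA10, NDUFB2 and SDHB, and none of these 5 genes was called in an ISO response. ATP5MC2 had an NRF1 core 40 and 58 bases before the starts of 2 of its RefSeq windows.

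Most other nuclear subunits moved little with ISO. In β-arr1/2 KO cells the median log2 fold change of the 82 was 0.05, with 50 positive. Of the 82, 17 lay above and 6 below their basal libraries without overlap, against 15.4% and 14.4% of all genes. The Gαs KO median was 0.02, with 55 positive, and 5 lay above and 1 below, against 4.9% and 5.58% of all genes. In wildtype cells the median was -0.17, with 63 of 82 negative, 27 at an unadjusted p under 0.05 lower and 3 higher, and 11 below and 1 above without overlap. Over all genes of the wildtype response 924 of 15519 were lower and 705 higher at an unadjusted p under 0.05 (10.5%), and 4.16% lay below and 4.85% above. Without WT basal 1 the wildtype median was -0.03 and 3 genes were called lower, ATP5MD, ATP5MPL and COX7C, so the wide wildtype shift rested on that library.

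Transcript length moved with it. The nuclear genes have a median transcript length of 855 bases and the mitochondrial genes 784, against 2798 over all genes tested. In the wildtype response the 48 nuclear subunit genes under 1 kb had a median log2 fold change of -0.28 and the 1128 tested genes under 1 kb one of -0.13, while the 21 nuclear subunit genes of 1 to 2 kb had -0.03. In the β-arr1/2 KO response the medians under 1 kb were 0.04 and -0.02, against the mitochondrial median of 0.54. Of the 1128, the 289 with a GC content of 40 to 48%, near the mitochondrial 44.3%, had a median of 0.07. With offsets for length and GC the medians were -0.07 (nuclear) and 0.23 (mitochondrial) in wildtype and 0.08 and 0.50 in β-arr1/2 KO cells. ATP5MD (414 bases), COX7C (645) and COX7A2 (768) are also under 1 kb. Of the 1128 genes, 6 were called lower in the wildtype response, of 8 over all lengths, and 0 higher, of 64. In the β-arr1/2 KO response 11 were higher, of 148, and 2 lower, of 27. For the difference of these responses 11 were higher, of 22, and 1 lower, of 4. Calls in these directions were thus not particular to the subunit genes, and their cause was not tested.

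More nuclear genes were called between the lines than with ISO. At basal, 2 of the 82 nuclear genes were higher and 28 lower in β-arr1/2 KO than in wildtype cells, with a median log2 difference of -0.22. The backgrounds were 15.7% higher and 17.9% lower. Of the Gαs KO differences, 6 were higher and 17 lower (backgrounds 14.2% and 17.1%), with a median of -0.16. With ISO the counts were 7 higher and 12 lower in β-arr1/2 KO (14.3% and 15.7%) and 7 higher and 8 lower in Gαs KO cells (14.1% and 15.8%), with medians of -0.002 and 0.07. The basal differences use WT basal 1, and without it the basal medians were -0.10 and -0.01, with 6 higher and 28 lower in β-arr1/2 KO and 13 higher and 16 lower in Gαs KO cells.

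By complex, the basal β-arr1/2 KO calls among nuclear genes were 1 higher and 7 lower of 36 in complex I, 0 and 2 of 4 in complex II, 1 and 5 of 9 in complex III, 0 and 4 of 14 in complex IV and 0 and 10 of 19 in ATP synthase. The Gαs KO calls were 3 and 6, 1 and 0, 1 and 2, 0 and 2, and 1 and 7. Of the 5 complexes, ATP synthase held the most lower calls in β-arr1/2 KO cells by count, at 10 of 19, beside 5 of 9 in complex III. The complexes differ in size, so these counts do not rank them. Over all genes tested, 17.9% were lower and 15.7% higher in β-arr1/2 KO, and 17.1% and 14.2% in Gαs KO cells. In the F1 head of ATP synthase, 3 of 5 genes were lower in β-arr1/2 KO cells and 2 of 5 in Gαs KO cells.

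Of the 3 c-subunit genes of ATP synthase, ATP5MC1 and ATP5MC2 were lower in both edited lines at basal. ATP5MC1 (ENSG00000159199, GRCh38 chr17:48892765-48895871, plus strand) had 1583, 1105 and 1213 normalised counts in wildtype basal libraries and 995, 1040 and 1150 with ISO. It had 511, 514 and 568, and 570, 525 and 566, in β-arr1/2 KO cells, and 788, 816 and 754, and 759, 727 and 745, in Gαs KO cells. The 3 lines did not overlap under either condition. The log2 difference from wildtype was -1.29 ± 0.11 at basal (edgeR adjusted p = 3.2e-07) and -0.94 ± 0.11 with ISO (1e-05) in β-arr1/2 KO, and -0.73 ± 0.11 (0.0001) and -0.51 ± 0.11 (0.0021) in Gαs KO cells.

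ATP5MC2 (ENSG00000135390, GRCh38 chr12:53632726-53677408, minus strand) had 13836, 8811 and 8571 normalised counts in wildtype basal cells, the highest in WT basal 1, and 4717, 4940 and 4967 in β-arr1/2 KO and 6654, 6821 and 6543 in Gαs KO basal cells. The lines did not overlap. The log2 differences were -1.09 ± 0.13 (edgeR adjusted p = 1.1e-05) and -0.64 ± 0.13 (0.0013), and -0.83 and -0.38 without WT basal 1. With ISO ATP5MC2 was called in β-arr1/2 KO (-0.56 ± 0.13, 0.0037) and not in Gαs KO cells (-0.22 ± 0.13, 0.22), and its basal Gαs KO call was lost when those groups alone were fitted (0.084). ATP5MC3, the remaining isogene, had 3553, 2191 and 2512 in wildtype and 2334, 2135 and 2202 in β-arr1/2 KO basal libraries, which overlapped, and was lower in the latter with ISO (-0.37 ± 0.13, edgeR adjusted p = 0.04).

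In β-arr1/2 KO cells the further basal differences among the 10 of most size were a higher level of UQCRHL (log2 difference 1.28 ± 0.30, edgeR adjusted p = 0.0032, uncertain as above) and lower levels of ATP5MD (log2 difference -1.04 ± 0.11), UQCR10, a small complex III subunit (-0.96 ± 0.18), COX7C (-0.84 ± 0.08), COX7B (-0.81 ± 0.11) and the complex I membrane arm subunits NDUFB9 (-0.82 ± 0.13), NDUFB11 (-0.73 ± 0.12) and NDUFB8 (-0.68 ± 0.19). UQCR10 had 768, 792 and 735 normalised counts there and 2072, 1079 and 1297 in wildtype basal cells. The wildtype group spread widely and still lay above. The basal and ISO comparisons use separate libraries, and 11 nuclear genes (13.41%, against 23.27% of all genes tested) were called the same way in both. The 10 lower ones were ATP5F1B, ATP5MC1, ATP5MC2, ATP5MF-PTCD1, COX7A2L, NDUFAB1, NDUFB11, NDUFB9, SDHB and UQCR10, and the higher one was UQCRHL. ATP5MD and ATP5MPL were called in opposite directions, lower at basal and higher with ISO (ATP5MD 0.40 ± 0.11). The ISO call of ATP5MD was lost without WT ISO 2 (adjusted p = 0.055) and that of UQCR10 (-0.63 ± 0.18) without WT ISO 3 (0.093) or β-arr1/2 KO ISO 2 (0.066).

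With ISO, further called differences in β-arr1/2 KO cells were higher NDUFA7, a complex I accessory subunit (0.81 ± 0.16), and ATP5F1E, the ε subunit of F1 (0.61 ± 0.22), the latter lost in 13 settings. ATP5MF-PTCD1 (-0.73 ± 0.14) is a read-through gene that shares exons with ATP5MF, as NDUFC2-KCTD14 does with NDUFC2, and how reads were divided between them is uncertain. ATP5MF itself was not called in this line at basal (-0.34 ± 0.21, edgeR adjusted p = 0.24).

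In Gαs KO cells the lower genes included a complex III core protein and the α subunit of F1. UQCRC2 (ENSG00000140740, GRCh38 chr16:21952660-21983660, plus strand) had 2499, 2408 and 2483 normalised counts at basal and 2346, 2450 and 2512 with ISO. Wildtype cells held 3734, 4312 and 3865, and 3984, 3732 and 3840. The groups lay far apart, with log2 differences of -0.69 ± 0.07 (edgeR adjusted p = 2.5e-06) and -0.66 ± 0.07 (3.7e-06). ATP5F1A had 6585, 6815 and 6643 at basal against 11501, 9608 and 9816 in wildtype cells, a log2 difference of -0.63 ± 0.07 (edgeR adjusted p = 4.4e-06), and -0.51 ± 0.07 with ISO (3.7e-05).

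Complex I genes called lower in Gαs KO cells both at basal and with ISO were NDUFA9, NDUFAB1, NDUFB9 and NDUFV2. NDUFAB1 is also the mitochondrial acyl carrier protein, and NDUFV2 is part of the NADH-oxidising module. With ISO their log2 differences were -0.55 ± 0.09 (NDUFA9), -0.55 ± 0.09 (NDUFAB1) and -0.54 ± 0.11 (NDUFV2). ATP5PO, the stalk subunit that confers oligomycin sensitivity, was higher (0.38 ± 0.07 with ISO, edgeR adjusted p = 0.00041), as were NDUFV3 and UQCRHL. These and the lower ATP5F1A, ATP5MC1 and UQCRC2 make 10 genes (12.2%, against 21.9% of all genes) called alike in both conditions.

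Some basal differences rested on WT basal 1. ATP5ME had 1199 normalised counts in that library, 311 and 383 in the other wildtype basal libraries and 289, 264 and 283 in Gαs KO cells, and its log2 difference of -1.18 ± 0.38 (edgeR adjusted p = 0.025) was -0.32 without it (0.26). That call was also lost without any 1 Gαs KO basal library (adjusted p from 0.062 to 0.076). ATP5F1E had 3095, 1516 and 1654 in wildtype and 906, 985 and 910 in Gαs KO basal cells, and its difference of -1.16 ± 0.22 (0.00079) was -0.77 without that library. Without it the β-arr1/2 KO differences of NDUFB8 and UQCR10 went from -0.68 to -0.27 and from -0.96 to -0.63. UQCRHL, at 64, 43 and 56 normalised counts in Gαs KO and 12, 14 and 20 in wildtype basal cells, is low and shares sequence with UQCRH, and its β-arr1/2 KO call with ISO was lost without WT ISO 1, WT ISO 2, β-arr1/2 KO ISO 1 or ISO 3 (adjusted p from 0.062 to 0.11).

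**Figure D5:**
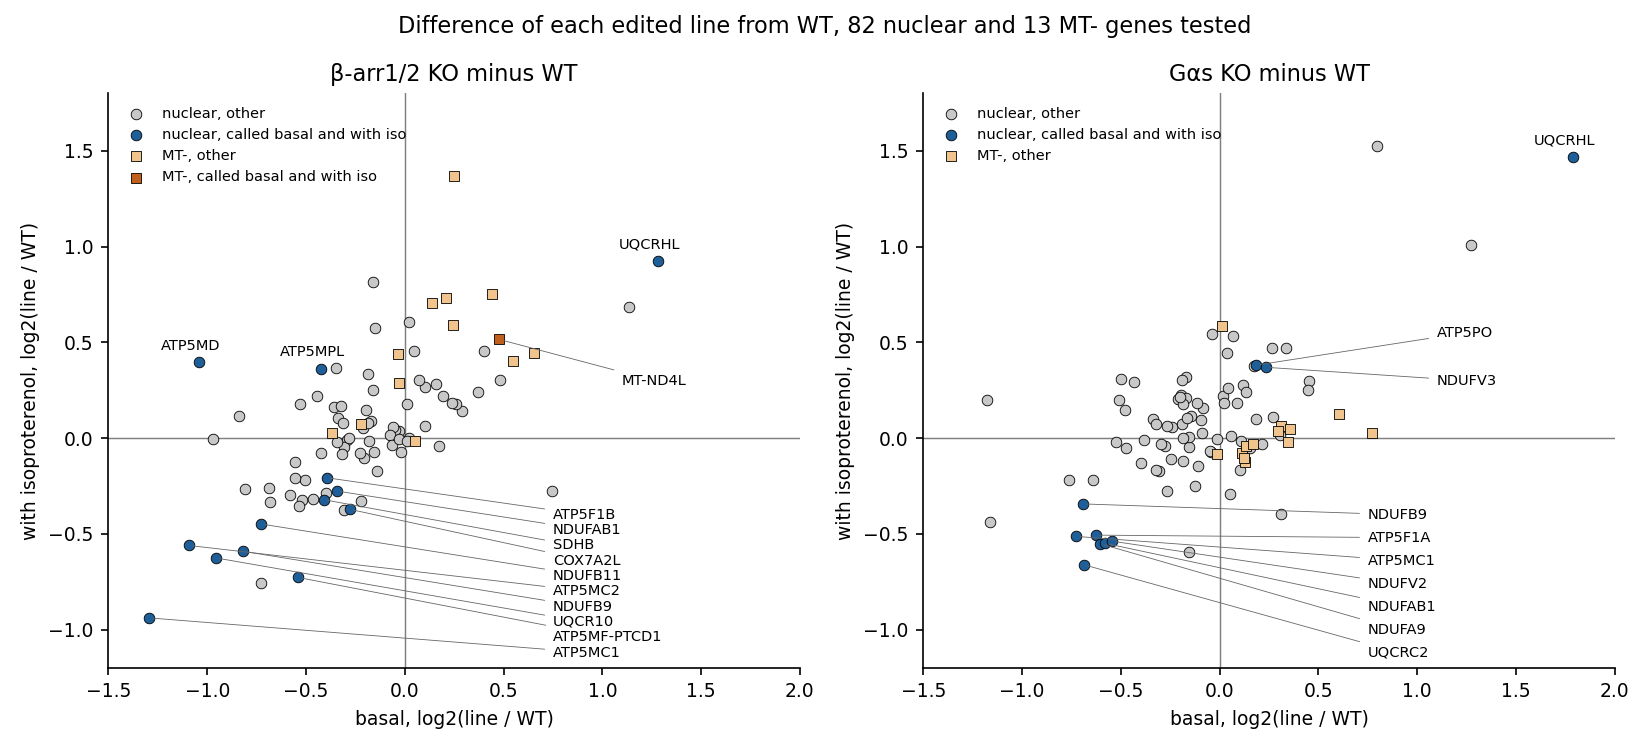
Log2 difference of each edited line from wildtype cells with ISO (vertical) against basal (horizontal) for the 82 nuclear (circles) and 13 mitochondrial (squares) genes tested; dark points were called under both conditions. ATP5MC1 lies lowest for β-arr1/2 KO (-1.29 and -0.94), UQCRC2 for Gαs KO (-0.69 and -0.66) among points called under both.

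Of the 13 mitochondrial genes compared between β-arr1/2 KO and wildtype cells, at basal 1 was higher, MT-ND4L (0.48 ± 0.16, edgeR adjusted p = 0.029), and 1 lower, MT-ND1 (-0.37 ± 0.12, 0.028). Over all genes, 15.7% were higher and 17.9% lower at basal, and 14.3% and 15.7% with ISO. With ISO 7 of 13 were higher and 0 lower, with a median log2 difference of 0.44. They were MT-ND3 (1.37 ± 0.18, edgeR adjusted p = 2.4e-05), MT-CO2 (0.75), MT-CYB (0.73), MT-ATP6 (0.70), MT-ND4 (0.59), MT-ND4L (0.52) and MT-CO3 (0.44). MT-ND3 had 8620, 6248 and 7830 normalised counts in β-arr1/2 KO and 2400, 2865 and 3532 in wildtype ISO libraries, which stood well apart. The basal call of MT-ND4L was lost without WT basal 1 (adjusted p = 0.053) or β-arr1/2 KO basal 2 (0.14), and that of MT-ND1 without WT basal 2, WT basal 3, β-arr1/2 KO basal 1 or basal 3 (0.067 to 0.15). Of the ISO calls, MT-ATP6 was lost without WT ISO 1 (0.051), MT-CO3 without WT ISO 1 or β-arr1/2 KO ISO 3 (0.063 each), and MT-ND4L without WT ISO 1, WT ISO 3, β-arr1/2 KO ISO 1 or ISO 2 (0.052 to 0.077).

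In Gαs KO cells MT-ND5 was higher at basal (0.34 ± 0.09, edgeR adjusted p = 0.011) and MT-ND3 with ISO (0.58 ± 0.17, 0.017), and 0 were lower. Over all genes, 14.2% were higher and 17.1% lower in this line at basal, and 14.1% and 15.8% with ISO. The MT-ND3 call was lost without WT ISO 1 (adjusted p = 0.094), WT ISO 2 (0.057) or Gαs KO ISO 3 (0.12). MT-ATP8 and MT-ND6 were low in WT basal 1 alone, at 1370 against 10616 and 9418, and at 1519 against 5013 and 3987 normalised counts in the other wildtype basal libraries. Without that library 10 mitochondrial genes were called higher in β-arr1/2 KO ISO cells and 0 at basal, where 1 stayed lower.

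Genes that build or feed the complexes had no edgeR call in any ISO response. This covered 49 assembly factors, 18 electron carriers and linked enzymes, 30 genes of mitochondrial DNA replication and transcription, 19 regulators and 77 mitochondrial ribosomal proteins tested. Of these 193 genes, edgeR called 0 in each response, with 22, 10 and 1 at an unadjusted p under 0.05 in wildtype, β-arr1/2 KO and Gαs KO cells (10.5, 8.31 and 1.05% of all genes), and DESeq2 called 2 (MRPL53 and SLIRP), 1 (MYC) and 0. Between lines at basal, 14 assembly factors were lower and 1 higher in β-arr1/2 KO, and 10 lower and 1 higher in Gαs KO cells. Over all genes 17.9% were lower and 15.7% higher in the first line and 17.1 and 14.2% in the second, and the counts of these lists stand beside those shares as description. The mitochondrial ribosomal proteins had 26 lower and 6 higher, and 21 lower and 4 higher. With ISO the assembly factors had 11 lower and 1 higher, and 10 lower and 1 higher, and the ribosomal proteins 21 lower and 8 higher, and 17 lower and 6 higher, in the same order of lines, where all genes had 15.7% lower and 14.3% higher, and 15.8 and 14.1%. At basal the replication and transcription genes had 10 lower and 4 higher, and 7 lower and 1 higher. The carriers and the regulators had 4 lower each in each line, with 2 higher carriers and 1 higher regulator.

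PPARGC1A, a coactivator of nuclear respiratory genes whose own gene is a known cAMP target in other tissues, was low in these cells. It had 94.8, 129 and 101 normalised counts in wildtype basal and 128, 146 and 89.8 in wildtype ISO libraries, with overlap. Its log2 response was 0.16 in wildtype, -0.19 in β-arr1/2 KO and 0.10 in Gαs KO cells, and none was called. It was lower in Gαs KO than in wildtype cells, at 60.7, 70.3 and 56.1 at basal (-0.80 ± 0.22, edgeR adjusted p = 0.01) and 65.6, 62.6 and 72.8 with ISO (-0.86 ± 0.22, 0.0066). In β-arr1/2 KO cells it was lower with ISO (-0.77 ± 0.22, 0.013) and not called at basal (-0.41, 0.15).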

How the data were processed

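The authors deposited expected counts per transcript, estimated by Salmon 1.7.0 from read pairs and not normalised for depth or length, for 184844 transcripts in 18 libraries. The labels name the GRCh38 build, and the transcript index is not given in the sources used here. Of these, 161798 transcripts matched GENCODE release 29 (GRCh38) by identifier without version, holding 92.92 to 93.75% of a library's counts. Gene sums were rounded, scaled by TMM and filtered with filterByExpr by group, which left 15519 genes. A quasi-likelihood model (edgeR 4.0.16, R 4.3.3) with 1 coefficient per group was fitted to all 18 libraries, and p-values were adjusted by Benjamini-Hochberg over all genes tested, with calls made under 0.05. DESeq2 1.42.0 (Wald test), other filters, offsets for length and GC, and libraries left out in turn were alternatives. TPM was computed from the deposited expected counts and annotated transcript lengths. Percentages of counts in mitochondrial genes are of all gene counts. The scripts were tested on simulated data. Tables and plots used Python 3.11.15 with numpy 2.4.6, pandas 2.3.3 and matplotlib 3.10.9.

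The genes and lists were chosen with earlier results of these data known. Named were all mitochondrial genes, the 10 nuclear genes of largest absolute log2 fold change among those called in each comparison, isogene sets, read-through genes, genes below the filter, those of highest and lowest TPM, PPARGC1A, and the targeted genes. Others were named after their values were seen. Replicates are labelled as biological replicates, and nothing says how their cultures were related. With 3 libraries per group, p-values measure the spread between these libraries, and counting error is not the limit at these depths for the genes named, UQCRHL, NDUFA4L2, COX6B2 and PPARGC1A apart.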

Additional observations from a re-analysis of the deposited data

Results flagged for a closer look

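The isoproterenol responses of 3 nuclear subunit genes differed between β-arr1/2 KO and wildtype cells by the edgeR test of the difference itself, over 15519 genes. The difference of log2 responses was 1.44 for ATP5MD, 0.951 for COX7C and 0.663 for COX7A2, each higher in β-arr1/2 KO cells. These 3 have transcripts under 1 kb, as had 11 of the 22 genes called higher. For ATP5MD and COX7C it was called in each of the 26 alternatives. For COX7A2 it was lost in 18.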

How the results depend on the processing

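Among 62 named calls, each 1 gene in 1 comparison, no direction turned under the alternatives run. The calls of genes not named are not covered by this. Fitting only the libraries of the groups compared changed the nuclear calls from 2 to 0 in the wildtype response, from 3 to 10 in the β-arr1/2 KO response, from 30 to 8 and from 23 to 8 in the basal differences of β-arr1/2 KO and Gαs KO cells, and from 19 to 32 and from 15 to 38 in those with ISO. The mitochondrial calls went from 3 to 9 in the β-arr1/2 KO response, from 2 and 1 to 0 in the basal differences and from 1 to 2 in Gαs KO with ISO. DESeq2 called 1 mitochondrial gene in the wildtype response, 5 nuclear and 7 mitochondrial in the β-arr1/2 KO response, 8 and 1 for its difference from wildtype, and 2 nuclear for that of Gαs KO. Offsets for length and GC gave 1 mitochondrial call in the wildtype response, 5 nuclear and 6 mitochondrial in the β-arr1/2 KO response, 1 mitochondrial for its difference, 1 nuclear for the Gαs KO difference, 3 mitochondrial for Gαs KO at basal, and 34 and 27 nuclear with ISO. The same offsets without WT basal 1, chosen after seeing the data, gave 4 nuclear in wildtype, 11 and 9 in β-arr1/2 KO, 11 and 1 for its difference, 2 nuclear for the Gαs KO difference, 2 mitochondrial for Gαs KO at basal, and 45 and 37 nuclear with ISO. Apart from the loss of samples in some, the cause was not tested. The Gαs KO response had 0 calls throughout.

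Leaving out 1 library gave 0 to 3 nuclear and 0 to 1 mitochondrial calls in the wildtype response, 1 to 13 and 0 to 13 in the β-arr1/2 KO response, 2 to 14 and 0 to 5 for its difference, 0 to 2 nuclear for the Gαs KO difference, 20 to 44 and 1 to 4 for β-arr1/2 KO at basal, 14 to 34 and 1 to 5 for Gαs KO at basal, 11 to 37 and 4 to 10 for β-arr1/2 KO with ISO, and 9 to 39 and 0 to 1 for Gαs KO with ISO. Same-numbered libraries did not deviate together (correlations from -0.099 to 0.077 over genes), so the numbers were not taken as pairs. A replicate block gave 2 nuclear calls in place of 3 for the β-arr1/2 KO difference, where COX7A2 was lost, and 31, 21 and 14 in place of 30, 23 and 15 for β-arr1/2 KO and Gαs KO at basal and Gαs KO with ISO. The TPM of MT-CO3 in wildtype basal cells was 5271 with protein-coding transcripts alone.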
